A study of Mus musculus with 2 samples.

Results

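Cycling cells of mouse pancreatic islets are described here across the islet's cell types. A barcode, which stands for the content of 1 droplet and usually 1 cell, was taken as cycling when the genes Mki67, Top2a, Cdk1, Birc5, Ccnb1 and Ccna2 together had at least 4 unique molecular identifiers (UMIs, counted RNA molecules). Of 16072 barcodes with at least 500 genes, at least 1000 UMIs and at most 20% mitochondrial UMIs, 62 met this rule, which were 22 of 7568 in 1 library and 40 of 8504 in the other. The first library came from islets of flox/flox mice. The second came from islets of mice labelled BcBKO, a beta-cell-specific ablation made with Pdx1-cre according to the series. The Pdx1 promoter of this recombinase is active in pancreatic progenitors and later mainly in beta cells. The title of the series concerns BAF60C, a chromatin-remodelling subunit encoded by Smarcd3, in type 2 diabetes. Each group was 1 droplet library of 3′ RNA tags from islets pooled from at least 3 mice and digested to single cells with a trypsin substitute. The age, sex and treatment of the mice are not given in the sources used here. With 1 library per group no test between groups was possible, and the 95% intervals below cover counting error only.

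The 6 genes of the rule act in DNA synthesis and division. Mki67 encodes the Ki-67 antigen of dividing cells, Top2a the topoisomerase that untangles replicated chromosomes, and Cdk1 the kinase that drives entry into mitosis. Ccna2 and Ccnb1 encode the cyclins A2 and B1 that activate Cdk1, and Birc5 encodes survivin, a part of the chromosomal passenger complex. Genes of DNA replication are transcribed mostly in late G1 and S phase, and genes of chromosome segregation in G2 and M phase. Adult beta cells divide rarely, whereas immune cells divide on activation.

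The promoters of the rule genes are shown because genes of the late cell cycle are known to share 2 short elements, a CCAAT box and the cell cycle genes homology region (CHR). Windows of 250 bases before the transcription start, from RefSeq for GRCm38.p6, were searched on both strands for CCAAT and for TTTGAA or TTCGAA, which are taken as CHR letters. These windows were found for 5 of the 6 rule genes, and 3 of the 5 held both elements. The stretches below are on the strand of the gene, 5′ to 3′, and the capitals mark either element on either strand.
Mki67 (chr7:135716380-135716529, minus strand): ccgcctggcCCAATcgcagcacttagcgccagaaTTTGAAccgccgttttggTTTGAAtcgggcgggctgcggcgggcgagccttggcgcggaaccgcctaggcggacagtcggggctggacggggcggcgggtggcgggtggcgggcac
Top2a (chr11:99024190-99024339, minus strand): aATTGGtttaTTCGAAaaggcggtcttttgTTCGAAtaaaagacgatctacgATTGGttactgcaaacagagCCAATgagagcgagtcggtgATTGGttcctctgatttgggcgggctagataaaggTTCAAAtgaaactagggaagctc
Cdk1 (chr10:69352939-69353062, minus strand): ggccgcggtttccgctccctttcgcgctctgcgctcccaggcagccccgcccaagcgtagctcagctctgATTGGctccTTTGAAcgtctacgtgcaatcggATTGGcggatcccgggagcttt
All 3 stretches lie before the annotated gene. The Mki67 stretch held 1 CCAAT and 2 CHR matches, and the Top2a stretch held 4 CCAAT and 3 CHR matches. The Cdk1 stretch held 2 CCAAT matches and 1 CHR match. In their windows of 250 bases, Ccnb1 held 2 CCAAT matches and 0 CHR matches, and Birc5 held neither. Over 27025 genes, 34.5% of windows held CCAAT, 17.4% held CHR letters and 6.21% held both. Among 43 genes of a list of G2 and M phase, without the rule genes, the shares were 76.7%, 39.5% and 34.9%. Among 30 genes of an S-phase list they were 70.0%, 16.7% and 13.3%. A high CCAAT share was not particular to cell cycle genes. Among 15 genes of the unfolded protein response the shares were 73.3%, 6.67% and 6.67%, and among 13 immediate-early genes 30.8%, 7.69% and 0%. A match of these letters is a description of the sequence and not a measured binding site.

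The flox/flox library held 9438 barcodes and 167670996 UMIs, and the library labelled BcBKO held 10775 barcodes and 178647270 UMIs. The kept barcodes had medians of 12163 and 12695.5 UMIs. The libraries shared 23 barcode sequences, of which 14 were kept in both and 0 were cycling. Smarcd3 had 43 UMIs (0.357 counts per 1000000 UMIs, CPM) in the non-cycling barcodes of the insulin class of the flox/flox library and 68 UMIs (0.567 CPM) in those labelled BcBKO. The gene was thus not lower under the label, but both levels are too low to check it. The name "the library labelled BcBKO" is used for that reason. Smarcd3 was far higher in the Rgs5 class (pericytes and other mural cells), at 65.5 CPM for flox/flox and 44.9 CPM for BcBKO. Whether its insulin-class UMIs came from RNA of other cells was not tested. The deleted exons are not given in the sources used here, so 3′ tags of Smarcd3 may not reach them and then leave the label unchecked. Among the cycling barcodes Smarcd3 had 0 and 1 UMIs.

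In the 62 cycling barcodes the rule genes had 1627 UMIs, from 4 to 164 per barcode with a median of 17. The barcodes were chosen by these values, which are given as a description. Top2a gave 523 of these UMIs and was found in 53 barcodes. Birc5 gave 342 UMIs in 45 barcodes, Mki67 318 UMIs in 54 barcodes and Cdk1 229 UMIs in 43 barcodes. Ccna2 gave 111 UMIs in 36 barcodes and Ccnb1 104 UMIs in 30 barcodes. UMIs count 3′ ends, so these counts are not divided by gene length. The cycling barcodes held 89.5% of all Birc5 UMIs of the kept barcodes, 83.8% of those of Top2a and 78.7% of those of Mki67, but 50.8% of those of Cdk1 and 50% of those of Ccna2. Outside the cycling barcodes Cdk1 was the leading rule gene, with 222 UMIs spread over 212 barcodes.

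At the edge of the rule, 11 barcodes had exactly 4 UMIs and 11 barcodes just outside it had 3. The S-phase genes had a median of 34 UMIs in the former and 15 in the latter, and the G2 and M genes a median of 30 and 20. These counts are not scaled by depth, and the median depths were 11280 and 8556 UMIs. In the library labelled BcBKO the G2 and M medians were 23 and 20 at depths of 20515.5 and 6955. In the flox/flox library they were 35 and 11 at depths of 11280 and 16856.5. Only 1 rule gene was found in 2 of the former and 6 of the latter. Within the rule, 42 of the 62 barcodes held UMIs of at least 4 of the 6 genes and 56 of at least 2. The remaining 6 barcodes passed on Ccnb1 alone.

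Ccnb1 is the cyclin of mitotic entry, and the 6 barcodes that held it without any other rule gene were unlike the rest. In the flox/flox library they were 2 barcodes of the insulin class with 5 and 17 Ccnb1 UMIs, 1 of the Plvap class with 5, and 1 without a class marker with 4. The library labelled BcBKO had 1 of the insulin class with 9 Ccnb1 UMIs and 1 with insulin and somatostatin markers with 4. Their S-phase and G2 and M genes together had a median of 4.44 UMIs per 10000 (range 2.63 to 20.8). The other 56 had a median of 102 (20.9 to 218). The ranges did not overlap but nearly met, at 20.8 in the Plvap barcode and 20.9 in an insulin-class barcode labelled BcBKO. The non-cycling barcodes of the 2 libraries had 1.89 and 1.85 UMIs per 10000 of the S-phase genes and 4.10 and 4.14 of the G2 and M genes. These levels differed by class. The Plvap barcode had 7.55 and 13.2 of the 2 lists, against 6.17 and 11.1 in the non-cycling barcodes of its class and library. The insulin-class barcode at 20.9 had 9.30 and 11.6, against 1.26 and 3.01. By these genes, which the rule did not use, the name "cycling" holds for 56 of the 62 barcodes and goes against the data for the 6 with Ccnb1 alone. The shares of all kept barcodes and of the insulin class and the main counts of genes are given with and without these 6. So are the gene values that moved most without them. The shares of the other classes, those without lymphocytes and those after thinning are given without leaving the 6 out.

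**Figure D1:**
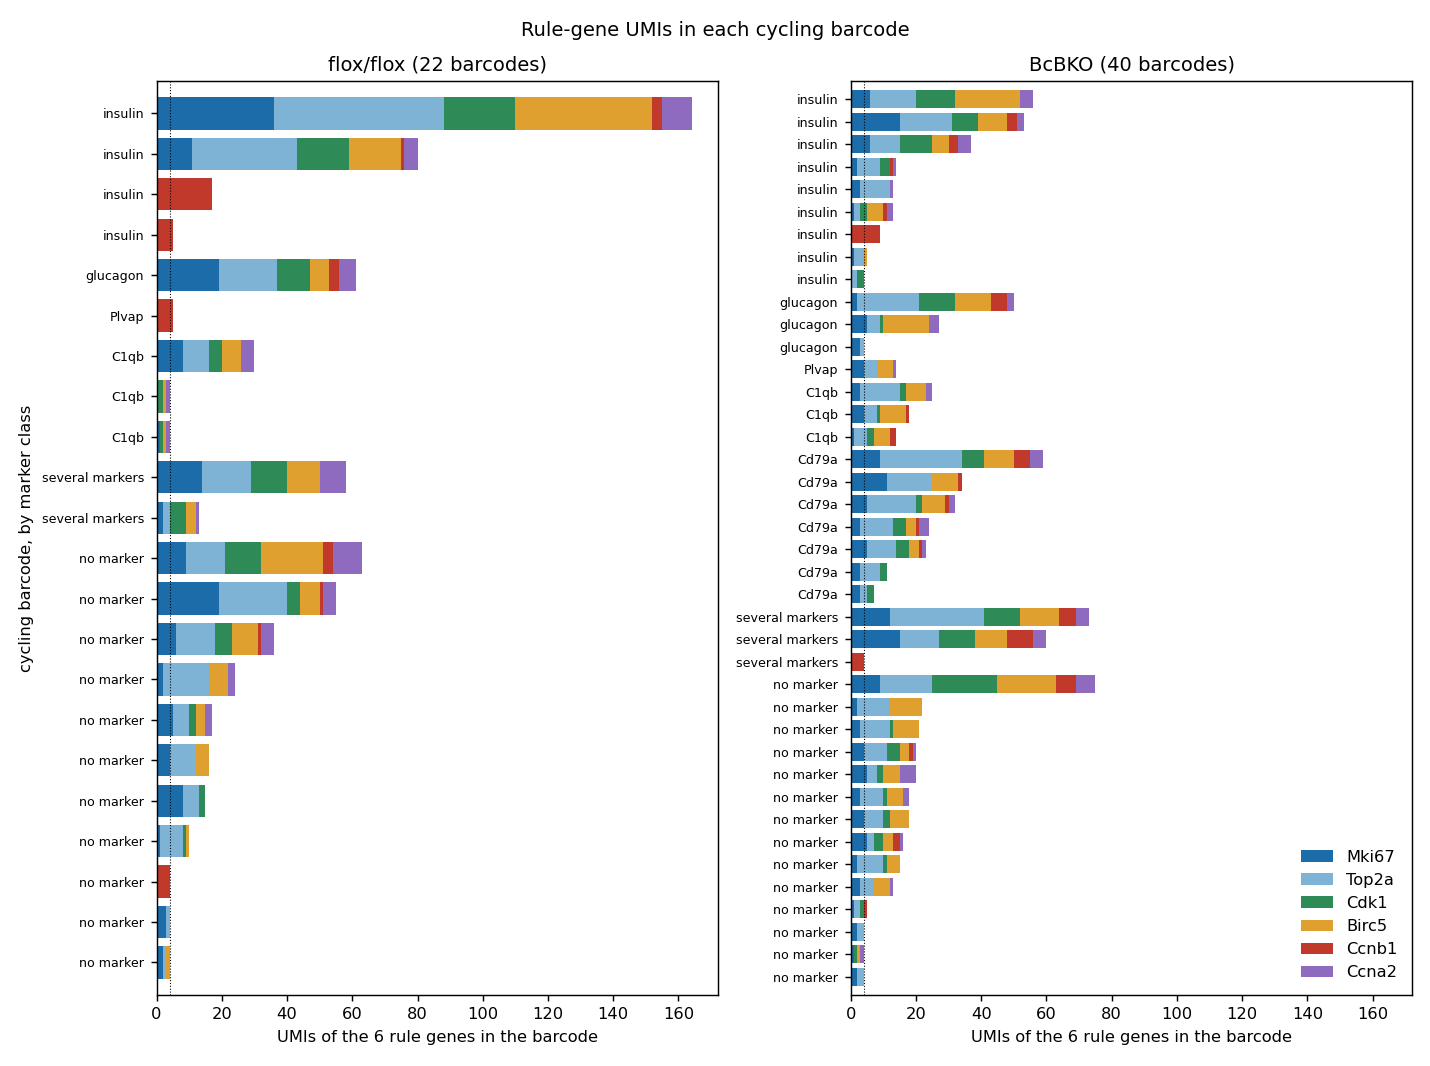
Each horizontal bar is 1 cycling barcode, its length is the number of UMIs of the 6 rule genes, and the colours are the genes; the dotted line is the rule's minimum of 4 UMIs. The bars of a single colour are the 6 barcodes with Ccnb1 alone, and the longest bar is the insulin-class barcode of the flox/flox library with 164 UMIs.

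Cell types were read from 7 markers: the insulin genes Ins1 and Ins2 (beta cells), Gcg (alpha cells), Sst (delta cells), Plvap (endothelium), Rgs5 (pericytes and other mural cells), C1qb (macrophages) and Cd79a (B lymphocytes). The insulin class needed 25% of a barcode's UMIs, the glucagon and somatostatin classes 1.5%, and the others 3 UMIs and 0.05%. A barcode past exactly 1 of these minimums took that class. A class made this way is a range of marker levels and not a proven cell type. The 62 cycling barcodes fell into the insulin class (13), the glucagon class (4), the Plvap class (2), the C1qb class (6), the Cd79a class (7), several markers (5) and no marker (25). The somatostatin and Rgs5 classes held 0.

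The share of cycling barcodes was 0.291% (exact binomial interval 0.182 to 0.440) in the flox/flox library and 0.470% (0.336 to 0.640) in the library labelled BcBKO. The ratio of the shares, the second library over the first, was 1.62 with an exact conditional interval of 0.939 to 2.86. Without the 6 barcodes with Ccnb1 alone the shares were 0.238% and 0.447%, with a ratio of 1.88 (1.05 to 3.50). The number of lymphocytes also differed between the libraries. Barcodes of the Cd79a class or with at least 10 UMIs of 8 T and NK lymphocyte markers numbered 75 in the flox/flox library, of which 2 were cycling. Those labelled BcBKO numbered 263, of which 19 were cycling. Without them the shares were 0.267% (20 of 7493) and 0.255% (21 of 8241), and the ratio was 0.955 (0.492 to 1.86). This set of lymphocytes was chosen after the values were seen. The shares without it still count the 6 barcodes with Ccnb1 alone.

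In the insulin class, 4 of 3181 barcodes (0.126%, 0.0343 to 0.322) were cycling in the flox/flox library and 9 of 3635 (0.248%, 0.113 to 0.469) in the library labelled BcBKO. The ratio of these shares was 1.97, with a counting interval of 0.550 to 8.75. Without the barcodes with Ccnb1 alone the counts were 2 and 8, and the ratio was 3.50 (0.699 to 33.8). In the glucagon class 1 of 425 (0.235%, 0.00596 to 1.30) and 3 of 690 (0.435%, 0.0898 to 1.27) were cycling. In the somatostatin class 0 of 279 and 0 of 348 were cycling, which allows shares of up to 1.075% and 0.862%. In the Rgs5 class the counts were 0 of 243 and 0 of 178, which allows up to 1.23% and 1.69%.

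Among the other cells, the Plvap class had 1 of 1173 (0.0853%, 0.00216 to 0.474) and 1 of 976 cycling barcodes (0.102%, 0.00259 to 0.570), and the flox/flox one held Ccnb1 alone. The C1qb class had 3 of 428 (0.701%, 0.145 to 2.03) and 3 of 339 (0.885%, 0.183 to 2.56). The C1qb shares of the 2 libraries lay well within each other's intervals. The Cd79a class had 0 of 29 in the flox/flox library, which allows up to 10.3%, and 7 of 140 (5%, 2.03 to 10.0) in the library labelled BcBKO. The Cd79a classes differed in makeup: the 6 B-lymphocyte markers, which include the antibody light chain Igkc, had 511499 CPM in the first library and 221201 CPM in the second, at median depths of 19178 and 2234 UMIs. Barcodes without a marker had 11 of 913 (1.20%, 0.603 to 2.15) and 14 of 997 (1.40%, 0.770 to 2.34).

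Cycling barcodes were deeper than the rest of their class wherever a class had at least 3 of them. In the insulin class their medians were 47680 and 42249 UMIs, against 36426 and 30587.5 in the others of the 2 libraries. Among barcodes without a marker the medians were 12892 and 10796.5, against 1681.5 and 2046. A fixed minimum of 4 UMIs is easier to reach in a deep barcode, so every barcode was also thinned at random to 4000 UMIs and counted with at least 2 rule-gene UMIs. This left out 1938 and 2140 shallower barcodes, 424 and 476 of them in the insulin class. The thinned shares were then 0.0725% (2 of 2757) and 0.127% (4 of 3159) in the insulin class, 0.272% (1 of 367) and 0.332% (2 of 602) in the glucagon class, and 0.855% (3 of 351) and 1.13% (3 of 266) in the C1qb class. They were 4.55% (11 of 242) and 4.86% (16 of 329) without a marker, and 23.3% (7 of 30, 9.93 to 42.3) in the Cd79a class labelled BcBKO. The insulin class thus had the lowest share above 0 in each library after thinning. Insulin transcripts take most of the 4000 UMIs in this class and leave fewer for other genes. Its low rank is therefore not a measure of dividing cells alone. At least 1 rule-gene UMI was found in 3.49% and 2.97% of all insulin-class barcodes and in 2.87% and 2.87% of the somatostatin class, where no barcode was cycling.

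**Figure D2:**
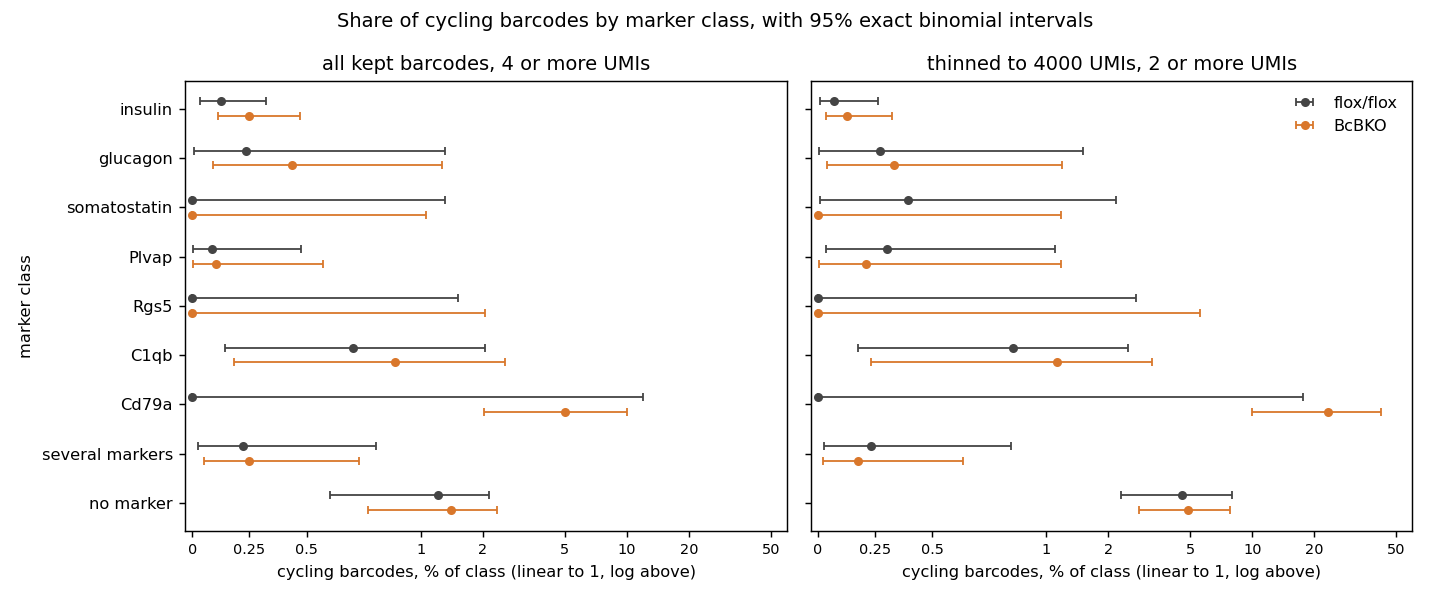
The points are the percentage of cycling barcodes in each marker class of the flox/flox library (grey) and the library labelled BcBKO (orange), with 95% exact binomial intervals, on an axis that is linear to 1 and logarithmic above; the right panel uses barcodes thinned to 4000 UMIs. The intervals of the 2 libraries overlap in every class of both panels, and the Cd79a class labelled BcBKO stands at 5% and, thinned, at 23.3%.

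The cycling barcodes of the Cd79a class, all 7 in the library labelled BcBKO, carried the genes of B lymphocytes. Cd79a, a signalling chain of the B-cell receptor, had 16 to 38 UMIs in each, and Cd79b, its partner chain, 2 to 15. Ms4a1, which encodes CD20, had 5 to 17 UMIs, and the antigen-presentation gene Cd74 65 to 181. Igkc ranged from 19 to 355 UMIs. Of the other 133 barcodes of that class, 67.7% held a UMI of Ms4a1, against 7 of 7 cycling barcodes, at median depths of 2220 and 10731 UMIs. The rule genes had 7, 11, 23, 24, 32, 34 and 59 UMIs in these 7 barcodes.

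T and NK lymphocyte markers reached 10 UMIs in 46 barcodes of the flox/flox library, of which 2 were cycling (4.35%, 0.531 to 14.8), and in 124 of the library labelled BcBKO, of which 12 were cycling (9.68%, 5.10 to 16.3). In the 2 flox/flox barcodes the T-cell receptor chain gene Trac had 3 and 7 UMIs and Cd8a, a co-receptor of cytotoxic T cells, 3 and 4. Nkg7, a cytotoxic granule gene, was found in all 12 cycling barcodes labelled BcBKO with 3 to 20 UMIs. Cd8a was found in 9 of these 12 and in 35.7% of the other 112, whereas Cd3d, a chain of the T-cell receptor complex, was found in 10 of the 12 and in 92.9% of the others. Ly6c2, known from memory and effector CD8 T cells, was found in 8 of the 12 and in 43.8% of the others. The median depth of all 124 was 3991 UMIs, and shares of barcodes with a UMI rise with depth.

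Of the 25 cycling barcodes without a class marker, 21 held Ptprc, which encodes the pan-leukocyte antigen CD45 (8 of 11 flox/flox and 13 of 14 labelled BcBKO). T and NK markers accounted for 2 and 9 of them. Among all barcodes without a class marker, cycling or not, dendritic-cell markers reached 10 UMIs in 14 of the flox/flox library and in 10 of the other. Of these, 3 and 1 were cycling. In these 4 cycling barcodes, Cd74 had 221 to 315 UMIs and H2-Aa, an MHC class II chain, 83 to 156. Cd209a, a lectin of dendritic cells, had 0 to 15 UMIs in the 3 flox/flox barcodes and 8 in the other. Macrophage markers reached 10 UMIs in 16 barcodes without a class marker of the flox/flox library and in 10 of the other, of which 3 and 0 were cycling. Of the 3 cycling ones, 2 are among the 3 with dendritic markers. The marker lists were not met at 10 UMIs in 2 cycling barcodes of each library, and all 4 held Cd74 (39 to 290 UMIs) and H2-Aa (16 to 123).

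The other cycling barcodes without a class marker were epithelial, endothelial or endocrine by their genes. In the flox/flox library 2 of 120 barcodes with duct markers were cycling, and 0 of 117 in the library labelled BcBKO. These 2 held 141 and 109 UMIs of the duct list, with Epcam, an epithelial adhesion gene, at 58 to 77 UMIs and the keratin Krt19 at 46 to 53. They also held 38 to 89 UMIs of Fabp2, the fatty acid binding protein of the intestine, which was found in 12.7% of the other 118. Their rule genes had 36 and 63 UMIs. Endothelial markers reached 10 UMIs in 23 and 27 barcodes without a class marker, of which 1 was cycling in each library. The flox/flox one, with 270 endothelial UMIs, held Ccnb1 alone. The one labelled BcBKO had 75 rule-gene UMIs with 41 UMIs of Cdh5 and 33 of Pecam1, both junction proteins of endothelium, and 2 of Plvap. A barcode of the same library with 7007 UMIs of Ppy, the hormone of PP cells, had 20 rule-gene UMIs and also 72 UMIs of the B-lymphocyte list. Ms4a1 had 9 UMIs in it and was found in 0 of the other 63 barcodes with at least 1000 Ppy UMIs.

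In the C1qb class, which stands for macrophages, the complement genes C1qa, C1qb and C1qc had 43 to 81, 66 to 112 and 39 to 77 UMIs in the 3 cycling barcodes of the flox/flox library. They had 2 to 50, 10 to 59 and 3 to 36 UMIs in the 3 of the library labelled BcBKO. The rule genes had 4, 4 and 30 UMIs in the first library and 14, 18 and 25 in the second. The cycling C1qb barcodes with 4 UMIs led with S-phase genes (35 and 70 UMIs against 30 and 40 of the G2 and M genes). The third flox/flox barcode led with G2 and M genes (108 against 42.4 per 10000), and all 3 labelled BcBKO led with G2 and M genes (84.7, 93.1 and 135 per 10000).

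Of the cycling barcodes with endothelial genes, 3 carried both Plvap and Rgs5. The combination was found in 573 and 489 barcodes, of which 2 and 1 were cycling, with 13, 58 and 60 rule-gene UMIs. In the 2 flox/flox barcodes Esm1, a secreted proteoglycan of angiogenic endothelium, had 47 and 54 UMIs, and in the other it had 4. Kit, a receptor tyrosine kinase, had 4 and 7 UMIs in the flox/flox pair and 2 in the other, and was found in 1.05% and 1.64% of the others with both markers. The cycling barcodes were deeper, with 36773 and 18756 UMIs in the pair and 45979 in the other. Median depths over all barcodes with both markers were 11305 and 9235, and shares of barcodes with a UMI rise with depth. The Plvap-only cycling barcode labelled BcBKO had 14 rule-gene UMIs, 7 of Plvap and 29 of the 7 endothelial markers, and it was called a doublet.

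In the glucagon class the flox/flox barcode had 4941 UMIs of Gcg (20.2% of its UMIs), 61 rule-gene UMIs and 0 UMIs of the T and NK list. Irx2, a transcription factor of alpha cells, had 3 UMIs in it. Of the 3 barcodes labelled BcBKO, the one with the most rule-gene UMIs (50) had 4518 UMIs of Gcg and 0 of the T and NK list. The other two had 27 and 4 rule-gene UMIs, 1291 and 3935 of Gcg, and 99 and 26 of the T and NK list, among them up to 55 UMIs of Trbc2, a T-cell receptor constant chain. Only 2 of the other 687 glucagon-class barcodes reached 10 UMIs of that list. The barcode with 26 was also called a doublet. Without these barcodes 1 cycling barcode of the glucagon class remained in each library.

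The 13 cycling barcodes of the insulin class varied widely. In the flox/flox library the rule genes had 5, 17, 80 and 164 UMIs, of which the first 2 were Ccnb1 alone. In the library labelled BcBKO they had 4, 5, 9, 13, 13, 14, 37, 53 and 56 UMIs, of which the 9 were Ccnb1 alone. The barcode with 164 held 36 UMIs of Mki67, 52 of Top2a, 22 of Cdk1, 42 of Birc5, 3 of Ccnb1 and 9 of Ccna2. No insulin-class barcode of the library labelled BcBKO reached the rule-gene UMIs of the upper pair of the flox/flox library.

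Insulin made up 40.8% to 71.1% of the UMIs of the 4 flox/flox barcodes, with the lowest shares in the upper pair (55.7% and 40.8%). The others of that class had a median of 63.5% and quartiles of 59.3% and 66.8%. In the library labelled BcBKO insulin made up 43.0% to 64.4%, with 5 of 9 barcodes below the others' median of 61.3%. Some of these barcodes carried genes of a second cell type. The BcBKO barcode with 5 rule-gene UMIs had 27 UMIs of the T and NK list and was called a doublet; 3 of the other 3626 barcodes of its class reached 10. The one with 37 had 1189 UMIs of Sst, 1261 of Gcg and 664 of Ppy. The flox/flox barcode with 17 Ccnb1 UMIs had 6 UMIs of Cd79a. The other cycling barcodes of the class held at most 3 UMIs of Cd79a and at most 1 of the T and NK list. Besides, 2 barcodes labelled BcBKO passed both the insulin and the somatostatin minimum, with 47.2% insulin and 1471 Sst UMIs in the one with 73 rule-gene UMIs. The part of second cells in these counts was not tested. With the T and NK barcodes and those with Ccnb1 alone left out, the insulin class had 2 of 3179 and 7 of 3631 cycling barcodes (ratio 3.06, 0.583 to 30.2).

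Genes of the S and G2 and M phases that the rule did not use were counted per barcode. The G2 and M genes had more UMIs than the S-phase genes in 45 of the 62 barcodes, fewer in 16 and as many in 1. Since the rule is made of genes of S, G2 and M phase, this describes the chosen barcodes and not the phases of all dividing cells. The highest G2 and M level, 200 UMIs per 10000, belonged to a T and NK barcode of the library labelled BcBKO with 7.05 of the S-phase genes. The highest S-phase level, 74.9, belonged to a Cd79a barcode of the same library, with 143 of the G2 and M genes. In the insulin class the G2 and M genes reached 71.7 per 10000 and the S-phase genes 30.3, both in the flox/flox barcode with 164 rule-gene UMIs. In insulin-class barcodes the insulin genes take most UMIs, which lowers these values per 10000.

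S-phase and G2 and M UMIs were also summed in thinned barcodes, to count those richest in these genes inside and outside the rule. At or above 41 such UMIs lay 11 barcodes of the flox/flox library, all cycling by the rule. Of the barcodes labelled BcBKO 19 lay there, of which 18 were cycling and 1, without a class marker, was not. The minimum of 41 was taken from the cycling barcodes themselves, so this too is a description. In the insulin class 1 flox/flox barcode and 0 labelled BcBKO reached it, though 4 and 9 were cycling by the rule. The count therefore cannot show whether the rule missed cycling barcodes of that class.

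**Figure D3:**
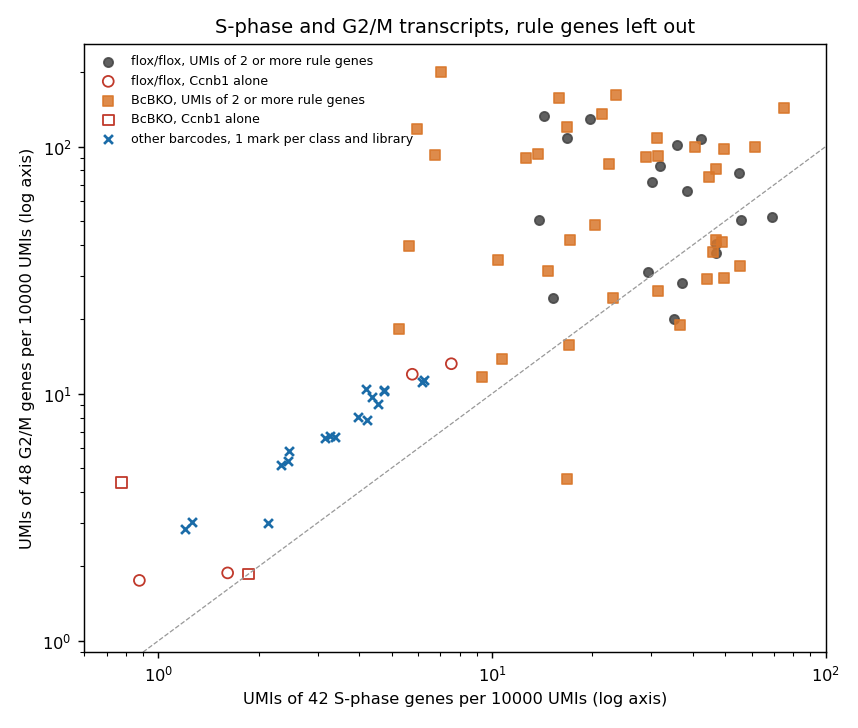
Each filled mark is 1 cycling barcode, placed by its UMIs of 42 S-phase genes (x axis) and 48 G2 and M genes (y axis) per 10000 UMIs on log axes, open red marks are barcodes with Ccnb1 alone, blue crosses are the pooled non-cycling barcodes of each class and library, and the dashed line marks equal values. The open marks lie near or below the crosses, at 2.63 to 20.8 for both lists together, and most filled marks lie above the line.

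Gene groups were then compared between cycling and other barcodes of the insulin class, from UMIs summed within each library. All 29 genes of replication origins and forks together had 783 CPM (Poisson interval 664 to 917) in the 4 cycling barcodes of the flox/flox library against 72.8 in the others. They had 660 CPM (589 to 737) against 76.9 in the library labelled BcBKO. Nucleotide supply (9 genes) stood at 686 against 49.2 CPM and at 411 against 52.3. DNA repair and recombination (12 genes) stood at 188 against 9.97 and at 152 against 10.7. These groups were 10.8, 13.9 and 18.9 times their level in other barcodes in the flox/flox library and 8.58, 7.87 and 14.3 times in the other.

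Among the groups of chromosome segregation the ratios varied. The kinetochore and checkpoint genes (15 of 17 listed symbols found) had 798 CPM (678 to 933) against 13.5 in the flox/flox library, a ratio of 59.0, and 497 CPM (436 to 564) against 15.9 in the library labelled BcBKO, a ratio of 31.3. Spindle genes and kinesins (23 genes) had ratios of 16.8 and 7.80, and the genes of mitotic exit and cytokinesis (14 genes) 17.6 and 9.79. Histones and chromatin assembly (20 genes) had the highest level, 4901 against 516 CPM and 2683 against 530. Condensin and cohesin (12 genes) had ratios of 8.97 and 4.16. In the flox/flox library nearly all of these UMIs came from 2 barcodes. In those 2 the kinetochore genes had 1244 CPM, and 1 of the 157 kinetochore UMIs of the library's 4 barcodes lay outside them (156 lay inside). The barcodes were selected on genes of the same programme, so these ratios are a description with no test.

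Among single genes, 3314 genes other than the rule genes had at least 20 CPM in cycling or in other barcodes of both libraries. Of these 227 (6.85%) had a log2 ratio of at least 1 in both libraries, and 11 (0.332%) of at most −1. Without the barcodes with Ccnb1 alone these counts were 299 and 28. A gene could reach 20 CPM through the cycling barcodes alone, which favours higher genes in such counts. The 10 kinetochore and 11 replication genes compared all did so, as did 12 of 15 spindle genes. With no minimum level 695 genes were higher and 656 lower, of 17489. Ratios were taken on log2 of CPM after adding 1 CPM, which understates differences of low genes. With another scaling the split changed: 140 higher and 64 lower with TMM factors, and 358 and 234 with totals that leave out hormone and mitochondrial genes. The median log2 ratio over all genes was 0.29 and 0.19 in the 2 libraries; it was −0.29 and −0.14 with TMM and −0.16 and −0.09 with the reduced totals.

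Stmn1, which encodes stathmin, a protein that destabilises microtubules, had the highest ratio. It had 0, 0, 82 and 118 UMIs in the 4 flox/flox barcodes, ordered by rule-gene UMIs, and 0 to 53 in the 9 labelled BcBKO. This was 1017 CPM (881 to 1168) against 1.20 in the others, and 443 CPM (385 to 506) against 1.53. The 2 flox/flox barcodes with several rule genes held all of its UMIs there. Ube2c, the ubiquitin-conjugating enzyme of the anaphase-promoting complex, had 178 against 0.0416 CPM and 123 against 0.133. Pbk, a mitotic kinase, had 290 against 0.0249 CPM and 98.1 against 0.0417.

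The next genes by this rule were Nusap1, Cdca3, Cenpa, Cenpf, Hmmr, Cks2, Esco2, Lockd, Spc24, Cenpm, Mxd3 and Casc5, with log2 ratios from 4.99 (Casc5, labelled BcBKO) to 7.40 (Cenpf, flox/flox). Nusap1 and Hmmr act on the spindle, Cenpa, Cenpf, Cenpm, Spc24 and Casc5 at the centromere and kinetochore, and Esco2 in sister chromatid cohesion. Cks2 binds cyclin-dependent kinases, and Lockd is a long noncoding RNA next to Cdkn1b. Each of the 15 genes was found in 2 of the 4 flox/flox barcodes. They were found in 5 to 9 of the 9 barcodes labelled BcBKO. In neither library did a single barcode supply all UMIs of any of them; the largest share was 91.7%, for Esco2 in the flox/flox library.

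Among genes of replication, Rrm2, the small subunit of ribonucleotide reductase, had 29 and 19 UMIs in the cycling barcodes, which were 147 against 1.16 CPM and 39.7 against 1.31. Pcna, the sliding clamp, had 5 and 29 UMIs, at 25.4 against 6.38 CPM and 60.6 against 6.32. Mcm3, a subunit of the replicative helicase, had 5 and 16 UMIs, at 25.4 against 0.0914 and 33.4 against 0.225 CPM. Hmgb2, a chromatin protein, had 615 against 13.7 CPM and 347 against 12.9. H2afz, a histone variant, was already at 211 and 227 CPM in the others and had 2364 and 1134 CPM in the cycling barcodes.

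The regulators of G1 were closer to the other barcodes. As a group (27 genes) they had 1195 against 639 CPM and 950 against 665, ratios of 1.87 and 1.43. The inhibitor genes Cdkn2d and Cdkn2c, which encode p19 and p18 of the INK4 family, were the 2 highest of the list. Cdkn2d had 178 against 9.05 CPM and 75.2 against 9.05, and Cdkn2c had 81.3 against 11.3 and 43.8 against 7.18. Ccnd2, the main D-type cyclin of beta cells, had log2 ratios of −0.99 and −0.16, and Ccnd1 of 0.64 and 0.77. Foxm1, a transcription factor of mitotic genes, had 1 and 7 UMIs. Cdkn1a, which encodes the p21 inhibitor, had 285 against 32.2 CPM in the flox/flox library, where 89.3% of its 56 UMIs came from 1 barcode, and 41.8 against 40.6 in the other.

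Known growth signals of beta cells (19 genes) had 391 CPM (309 to 489) against 483 and 459 CPM (401 to 524) against 528. The prolactin receptor gene Prlr had log2 ratios of 0.15 and −0.29, and Tph1, the serotonin-synthesis enzyme induced in pregnancy, had 0 UMIs in both sets of cycling barcodes. Of the 5 genes of the list with enough UMIs, 0 reached a 2-fold difference in both libraries in either direction, beside 6.85% and 0.332% of all genes. With TMM factors 1 was lower, and with the reduced totals 2 of 9. Their median was −0.42 and −0.29.

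The 28 genes of beta-cell identity and secretion had 23 members with enough UMIs, of which 0 were 2-fold higher or lower in both libraries, beside 6.85% and 0.332% of all genes. With TMM factors 2 were lower, and with the reduced totals 1. Their medians were −0.42 and −0.17, against 0.29 and 0.19 for all genes. The prohormone convertase gene Pcsk1 was the highest of the list by its smaller ratio (0.88 and 0.89). G6pc2, the islet glucose-6-phosphatase, had 275 against 543 CPM and 276 against 425, and Ucn3, a maturity marker, had 168 against 242 and 148 against 251. The glucose transporter gene Slc2a2 had 5, 11, 6 and 0 UMIs in the 4 flox/flox barcodes, which were 134, 322, 89.3 and 0 CPM, against a median of 215 in the others. Its flox/flox log2 ratio was −1.10 with all 4 barcodes and −2.31 without those with Ccnb1 alone. Of the 9 barcodes labelled BcBKO, 6 lay below the others' median of 156 CPM. The 25 genes of the list other than Ins1, Ins2 and Iapp had 6074 to 13304 CPM per barcode in the first library and 5040 to 13153 in the second, around the others' medians of 7961 and 8047.

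Immediate-early genes, which cells induce within minutes of a stimulus such as dissociation, lay below the median of the other barcodes in the flox/flox library. The 15 genes had 188, 2019, 1518 and 1478 CPM in the 4 flox/flox barcodes, all below the others' median of 3036. In the 9 barcodes labelled BcBKO they had 582 to 3995 CPM with a median of 2902, and 4 lay below the others' median of 2797. Without the barcodes with Ccnb1 alone, 2 of 2 and 4 of 8 lay below. Fosb, a partner of Jun, had 81.3 against 311 CPM and 152 against 303. Over 13 genes with enough UMIs, of which 1 reached the minimum through the cycling barcodes alone, the medians were −1.46 and −0.39, and 0 were higher and 1 lower, Atf3, beside 6.85% and 0.332% of all genes. Under each of the 2 other scalings the medians stayed below 0 and 4 genes were lower. Without the barcodes with Ccnb1 alone the medians were −1.16 and −0.34, and 2 genes were lower. The genes of the unfolded protein response had 4011 against 3592 CPM and 4258 against 3721.

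**Figure D4:**
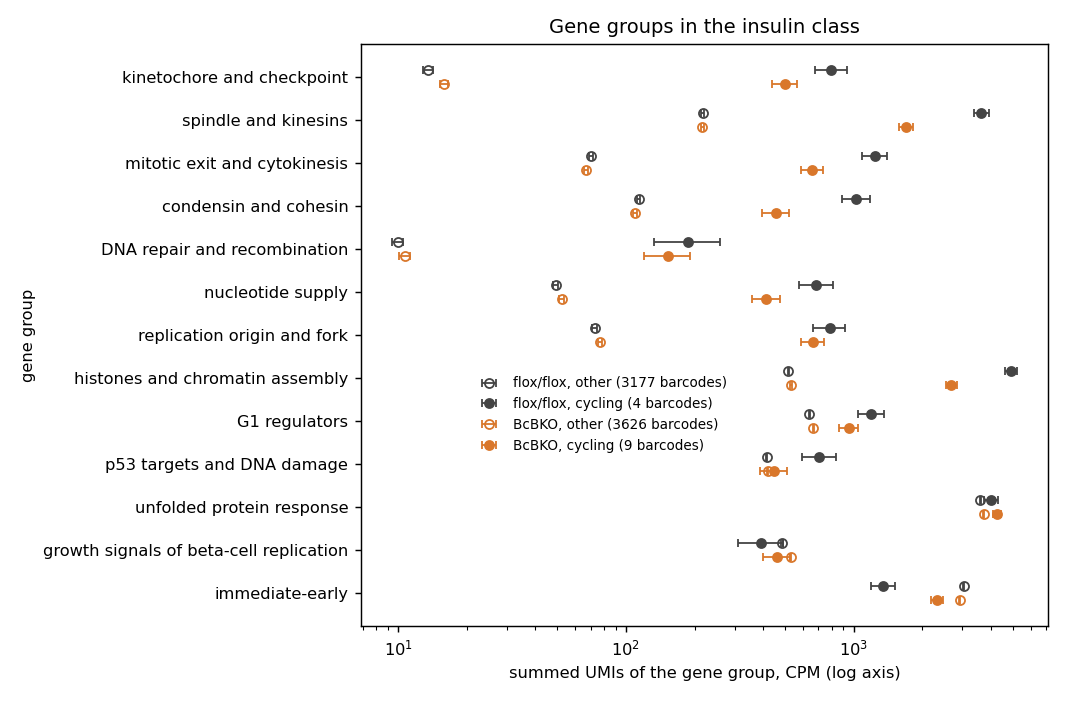
The points are the summed level of each gene group in the insulin class in CPM on a log axis, filled for cycling barcodes and open for the others, grey for the flox/flox library and orange for the library labelled BcBKO, with 95% Poisson intervals of the summed UMIs. The kinetochore group stands farthest apart (798 against 13.5 and 497 against 15.9 CPM), and the groups of growth signals and the unfolded protein response lie close together.

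Of the 11 genes lower in cycling barcodes of both libraries, 2 were open to naming by size and 9 fell under the kinds of gene left out, such as those more than 5 times higher in another class. Cox6a2, a subunit of cytochrome c oxidase, had 3 and 15 UMIs, at 15.3 against 92.7 CPM and 31.3 against 91.8. Its 3 flox/flox UMIs all came from the barcodes with Ccnb1 alone, and without them its log2 ratio on the scale of CPM plus 1 moved from −2.53 to −6.55 there. Gad1, which makes the transmitter GABA, had 3 and 6 UMIs, at 15.3 against 40.8 CPM and 12.5 against 30.6, and its flox/flox log2 ratio moved from −1.36 to −2.22 without those barcodes. Cited2, a transcriptional cofactor, had 76.3 against 150 CPM and 77.3 against 146. The others named by the rule, Tor1aip2, Lrrn1, Atf5, Wsb2, Slc37a4, Kif12 and Srm, had 3 to 22 UMIs in a library and log2 ratios of −1.14 to −0.73. With totals of all UMIs, Cox6a2 and Gad1 of these 10 genes passed −1 in both libraries, and with TMM factors or the reduced totals all 10 did.

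**Figure D5:**
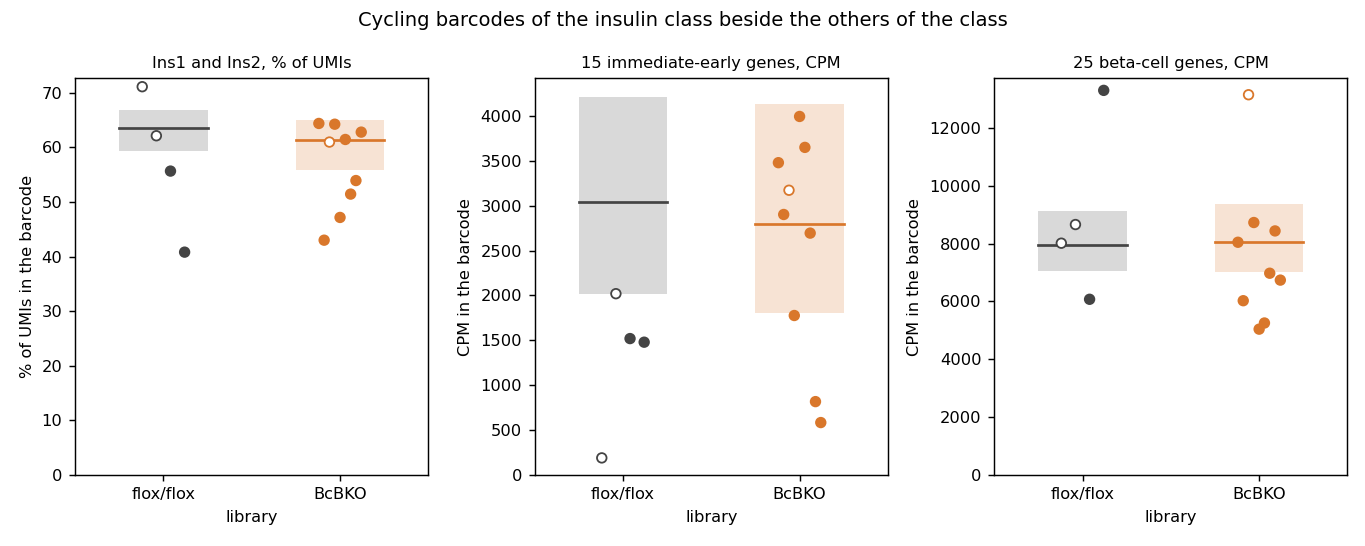
Each point is 1 cycling barcode of the insulin class (open: Ccnb1 alone), with the others of the class shown by their median (line) and quartiles (band), for the share of insulin UMIs, the immediate-early genes and 25 beta-cell genes. All 4 flox/flox barcodes lie below the others' median of 3036 CPM for the immediate-early genes, and those labelled BcBKO lie on both sides of 2797 CPM.

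Between the libraries, cycling barcodes of the insulin class were compared for 1507 genes with at least 50 CPM in either and 30 UMIs. In the library labelled BcBKO 100 genes (6.64%) were at least 2-fold higher and 84 (5.57%) at least 2-fold lower. With TMM factors these were 113 and 55. With only the 2 and 8 barcodes with several rule genes they were 85 and 194, with a minimum of 6 rule-gene UMIs 65 and 120, and without the barcode rich in Sst and Ppy 71 and 74. The balance of the directions thus turned with the barcodes included. Among genes open to naming, which leaves out those more than 5 times higher in another class, the highest log2 ratios were those of Uso1 (1.67), Gng12 (1.65), Golt1b (1.53), Tmem248 (1.49), Chic1 (1.41), Neurod1 (1.39), Ubn2 (1.39) and Strap (1.37). Uso1 and Golt1b act in transport between the endoplasmic reticulum and the Golgi apparatus, and Neurod1 is a transcription factor of endocrine cells. Neurod1 had 11 and 71 UMIs, at 55.9 and 148 CPM, against 82.0 and 92.9 CPM in the other barcodes of the 2 libraries.

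The lowest of the same genes were Pcp4 (−2.43), Dnajc9 (−2.30), Nupr1 (−2.17), Mt1 (−2.13), Ncapd3 (−2.10), Hist1h1e (−2.09), Tpx2 (−1.96) and Gc (−1.88). Cdkn1a, which is not among them, had −2.74. Ncapd3, a condensin subunit, Hist1h1e, a linker histone, and Tpx2, a spindle assembly factor, belong to division itself. Tpx2 had 23 and 14 UMIs, and 60.9% of the former came from 1 barcode. Over the 8 genes the largest share from 1 flox/flox barcode ran from 52.2% (Pcp4) to 91.3% (Hist1h1e), with 75% for Ncapd3. Mt1, a metallothionein, had 61, 1, 161 and 253 UMIs in the 4 flox/flox barcodes, at 1641, 29.3, 2397 and 4349 CPM, and 1 to 122 UMIs in the 9 labelled BcBKO. In the other barcodes of the class Mt1 was also higher in the flox/flox library, at 989 against 550 CPM. Smarcd1 and Smarcd2, which encode the alternative subunits BAF60A and BAF60B, had 2 UMIs each in the flox/flox barcodes and 2 and 6 in the others, too few for a comparison. With 4 and 9 barcodes from 1 library each, differences between mice and between libraries cannot be told apart from differences between the groups.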

How the data were processed

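Islet cells were profiled in 2 droplet libraries, 1 per group. The deposited values are raw UMI counts of 28692 genes in each barcode, not normalized. Cell Ranger 3.1.0, Seurat 4.0.0 and mm10 are named in the submitters' processing notes, and the matrix header names Cell Ranger 6.1.2; which made the counts could not be settled. Barcodes with at least 500 genes and 1000 UMIs and at most 20% mitochondrial UMIs were kept. Doublets were called with Scrublet in scanpy 1.11.5 (assumed rate 8%, seed 1), 170 (2.25%) and 177 (2.08%) barcodes, and kept in. CPM are summed UMIs per 1000000 UMIs of the same barcodes; log2 ratios use a pseudocount of 1 CPM. Shares have exact Clopper-Pearson intervals, their ratios exact conditional intervals and CPM exact Poisson intervals, all at 95%; a limit for 0 is 3 counts of the total. TMM factors came from edgeR 4.0.16. Thinning and gene ratios were tested on simulated data. Named genes are the 15 highest and 10 lowest ratios of cycling over other barcodes, the 8 highest and 8 lowest between libraries, the extremes of each gene list and a fixed set, without mitochondrial, ribosomal, sex-linked and hormone and acinar genes, Gm and Rik models, and genes over 5 times higher in another class; not all are given. H2afz and the cell type genes printed for single classes were named beside the rule, after their values were seen. Of the listed symbols 4 were absent from the files. Positions come from GENCODE M21 (GRCm38). The rule, classes, lists and alternatives were chosen with earlier results of these data known.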

Additional observations from a re-analysis of the deposited data

How the results depend on the processing

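No paired analysis was possible because each group is 1 library and only replicate number 1 exists. The ratio of cycling shares between the libraries lay between 0.955 (without lymphocytes, chosen after seeing the data) and 1.90 (a minimum of 6 UMIs) over all kept barcodes, and between 1.53 (without Top2a in the rule) and 3.50 (at least 2 rule genes, or the rule without Ccnb1) in the insulin class; every interval of the insulin class contained 1. Over all barcodes the interval excluded 1 with at least 2 rule genes or without Ccnb1 in the rule (1.05 to 3.50 for both) and without Birc5 in the rule (1.03 to 3.35). The genes higher in cycling barcodes of the insulin class, 227 beside 11 lower, became 695 beside 656 lower with no minimum level. They became 140 beside 64 lower with TMM factors. With totals without hormone and mitochondrial genes they became 358 beside 234 lower. With several rule genes required they were 299, of which 221 were among the 227. Genes that differed between libraries, 184, became 5534 with no minimum level and 279 with several rule genes required. Without a minimum more genes are tested; for the other settings the cause was not tested. Precision is limited by 62 barcodes, 13 of them in the insulin class.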

Other observations

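The rule genes were also summed over all barcodes of a class, cycling or not, which needs no minimum per barcode. In the flox/flox library this level was 53.5 CPM (interval 47.5 to 60.1) without a marker, 27.4 CPM (21.2 to 34.8) in the C1qb class, 15 CPM (6.05 to 31) in the Cd79a class, 12.4 CPM (9.74 to 15.6) in the glucagon class and 3.15 CPM (2.84 to 3.48) in the insulin class. In the library labelled BcBKO it was 301 CPM (261 to 345) in the Cd79a class, 53.9 CPM (48 to 60.3) without a marker, 39.1 CPM (30.5 to 49.4) in the C1qb class, 11.7 CPM (9.42 to 14.4) in the glucagon class and 2.56 CPM (2.28 to 2.86) in the insulin class. Insulin transcripts make up most of the UMIs of the insulin class and lower its CPM. In the somatostatin class, with 0 cycling barcodes, the level was 3.21 CPM (1.54 to 5.91) and 3.50 CPM (1.81 to 6.11), and Ccnb1 gave 50% of its rule-gene UMIs in both libraries (5 of 10 and 6 of 12). In each library 3 of these Ccnb1 UMIs came from 1 barcode. Outside the cycling barcodes Ccnb1 gave 12.4% and 12.6% of rule-gene UMIs over all classes. In single classes its share ran from 0% to 66.7%, the latter being 2 of 3 UMIs in the Rgs5 class labelled BcBKO.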
